A study of Oryza sativa with 3 samples.

Results

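Fragments of tRNA-Leu with the anticodon CAA were followed through rice pollen development. They are the rows labelled CAA in the deposited lists of tRNA-derived small RNAs: 84 of 5477 distinct sequences in uninucleate microspores (UNM), 280 of 14717 in bicellular pollen (BCP) and 209 of 8633 in tricellular pollen (TCP), which come to 365 of 18424 distinct sequences over the 3 lists. All spores came from field-grown Oryza sativa of the cultivar Guichao No.2 and were separated on a sucrose gradient, with 1 small RNA library per stage and no treatment or mutant named in the labels. Each stage is thus a gradient fraction of whole spores: UNM are haploid spores before the first pollen mitosis, BCP follows that division, and TCP also follows the division that forms the sperm cells. The lists hold 4958412 reads for BCP and 686685 for UNM, 7.22 times as many in BCP. The numbers of the TCP list do not exceed 28 and were not taken as reads, so TCP enters only through which sequences it lists. A share below is a percentage of the tRNA-derived reads of a list unless another base is named. With 1 library per stage no test between stages is possible, and the 95% intervals in parentheses cover counting error only.

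Leucine tRNAs with this anticodon read the codon UUG, and like all leucine tRNAs they carry a long variable arm between the anticodon stem and the T arm. Plants make tRNA-Leu CAA from nuclear genes for the cytosol and from a plastid gene, trnL-CAA, for the plastid ribosome. In Arabidopsis, ribonucleases of the T2 family are known to cut tRNAs in the anticodon loop and in the D loop, which gives longer and shorter fragments of the 5′ side. No list says where on its tRNA a sequence lies, so the parents were rebuilt from the overlaps of the listed CAA sequences themselves. This gave an 81-base and an 84-base tRNA, shown because every position below is counted on them, from base 1 at the 5′ end, with the anticodon in capitals.
plastid-type parent: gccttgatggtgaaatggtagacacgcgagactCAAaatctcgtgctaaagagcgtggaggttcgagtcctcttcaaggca
nuclear-type parent: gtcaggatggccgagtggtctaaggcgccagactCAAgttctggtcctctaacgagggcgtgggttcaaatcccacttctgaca
In the 81-base parent all 7 positions of the acceptor stem form Watson-Crick pairs, and in the 84-base parent 6 do while 1 is a wobble pair. The anticodon lies at bases 34 to 36 of the 81-base parent and at bases 35 to 37 of the 84-base parent, in a loop of the sequence CTCAAAA and CTCAAGT. The 81-base form is called plastid-type here because it opens like plastid trnL-CAA as generally known. No plastid genome was compared. The annotation of rice assembly ASM3414082v1 names 16 TRNAL-CAA genes on the nuclear chromosomes, 8 of them 81 bases long and 8 of them 84 bases long, so reads of the 81-base form may come from the plastid or from nuclear copies, which cannot be told apart. Of the 365 sequences, 224 lie in the plastid-type parent and 135 in the nuclear-type parent by exact match, none lies in both, and 6 differ by 1 base or carry 1 extra end base.

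CAA fragments took a far larger share of the list in BCP. They had 96393 reads or 1.94% in BCP (1.93 to 1.96) and 737 reads or 0.107% in UNM (0.0997 to 0.115), 18.1-fold higher in BCP (16.8 to 19.5). The difference lay in the plastid-type fragments, with 94868 reads or 1.91% in BCP (1.90 to 1.93) and 338 reads or 0.0492% in UNM (0.0441 to 0.0548), 38.9-fold higher in BCP (34.9 to 43.4). Nuclear-type fragments had 1505 reads or 0.0304% in BCP (0.0288 to 0.0319) and 398 reads or 0.0580% in UNM (0.0524 to 0.0639), 1.91-fold lower in BCP (1.71 to 2.13). The make-up of the group was therefore different: plastid-type reads were 98.4% of CAA reads in BCP (98.3 to 98.5) and 45.9% in UNM (42.2 to 49.5). A share falls when others rise, and without tRNA-Asp reads in the totals the nuclear-type log2 ratio was -0.30 in place of -0.93, while the plastid-type one was 5.91 in place of 5.28. Leaving these reads out makes each ratio of BCP over UNM 1.55 times as large. In whole spores, a difference in the number of cells of a type and a difference in RNA per cell cannot be told apart.

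A 35-base fragment made up most of the CAA reads in BCP. It runs from the first base of the plastid-type parent to the middle base of the anticodon, and it is shown with the anticodon bases it keeps in capitals.
35-nt plastid-type fragment: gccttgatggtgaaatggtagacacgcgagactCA
It had 86261 reads in BCP and 152 in UNM, 78.6-fold higher in BCP as a share (67.0 to 92.8). It was the most abundant CAA sequence in both lists, with 89.5% of the CAA reads in BCP (89.3 to 89.7) and 20.6% in UNM (17.8 to 23.7). Among all listed tRNA fragments it ranked 9 in BCP and 188 in UNM. Without this sequence the CAA log2 ratio was 1.29 in place of 4.18, and the plastid-type one 2.70, so the direction stayed and the size rested largely on 1 sequence.

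The reads that share its start ended almost entirely at the same base. The rows labelled CAA that begin with the first 13 bases of the plastid-type parent had 89332 reads in BCP and 160 in UNM, 77.3-fold higher in BCP (66.2 to 90.9). A 22-base piece of this start, with 19 reads in BCP and 7 in UNM, is labelled GAA in UNM, so its 7 reads are not in the 160. Of the rows labelled CAA, 96.6% in BCP and 152 of the 160 in UNM were the 35-base form. The 36-base form, which keeps the whole anticodon, had 1246 reads in BCP and 4 in UNM, and the 34-base form had 643 in BCP and none in UNM. A weaker group of ends lay in the anticodon stem, where the 29-base form had 301 reads and the 31-base form 278 reads in BCP, and neither was read in UNM.
36-nt plastid-type fragment: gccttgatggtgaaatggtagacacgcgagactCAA
29-nt plastid-type fragment: gccttgatggtgaaatggtagacacgcga
The shortest listed sequence of this start has 18 bases, with 41 reads in BCP and 3 in UNM, so no CAA row holds a 13- to 17-base piece of the plastid-type 5′ end. At the long end, a 39-base form had 58 reads in BCP, none in UNM, and is not among the TCP sequences. That length is the longest in the BCP list, which holds 1 sequence of 37 bases and 0 of 38 but 286 of 39, while the UNM list holds 95 of 40 bases and 0 of 38 or 39. Values at these lengths therefore depend on what each list holds.

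Plastid-type fragments with later starts formed a ladder with the same 3′ end. Whatever its label, for each of the 23 starts from base 1 to base 23 the piece that ends at base 35 was read in BCP and is listed in TCP, and 9 of the 23 were read in UNM. In BCP, 96.3% of all plastid-type reads (96.2 to 96.4) ended at base 35, and in UNM 91.7% did (88.2 to 94.4). Without the 35-base sequence the shares were 59.1% in BCP and 84.9% in UNM, a difference of -25.8 percentage points, BCP minus UNM, in place of 4.57. The ladder is shown for the 4 neighbouring starts with the most reads, all in the D loop, which spans bases 13 to 22.
start 13, 23 nt: aaatggtagacacgcgagactCA
start 14, 22 nt: aatggtagacacgcgagactCA
start 15, 21 nt: atggtagacacgcgagactCA
start 16, 20 nt: tggtagacacgcgagactCA
The 20-base form had 1958 reads in BCP and 68 in UNM, 3.99-fold higher in BCP (3.13 to 5.16). The 21-base form had 1102 reads in BCP and 50 in UNM, 3.05-fold higher (2.30 to 4.14). The 22-base form had 721 reads in BCP and 24 in UNM, 4.16-fold higher (2.77 to 6.54). The 23-base form had 480 reads in BCP and 0 in UNM, 22.2-fold higher with 3 counts set for the 0, a value without an interval. The pieces from bases 14, 15 and 16 were thus read in both libraries, and the 23-base form in BCP only.

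The balance between the full 5′ fragment and its shortened forms differed between the stages. Pieces that start in the D loop and end at base 35 held 4.91% of plastid-type reads in BCP (4.78 to 5.05) and 44.7% in UNM (39.3 to 50.1). Again over all labels, the full 35-base form had 16.8 reads for each read of a shortened form that ends at base 35 in BCP, and 0.962 in UNM. As a share of the list, the D-loop group was 4.27-fold higher in BCP (3.63 to 5.06), a smaller ratio than the 78.6-fold of the 35-base form, with intervals that do not overlap. Pieces that start at bases 2 to 12 and end at base 35 held 424 reads in BCP and 5 in UNM, 11.7-fold higher (4.99 to 36.4), and in UNM only 1 of these 11 pieces was read. With reads drawn from BCP down to the list total of UNM, 20 of the 23 starts had a read, against 9 in UNM. The drawn reads still held 13337 CAA reads, against 737 in UNM, so these counts of starts are not at equal CAA depth.

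The 3′ side of the plastid-type tRNA gave a small part of the listed reads. The longest listed sequences have 39 bases in BCP and 40 in UNM and TCP. A piece from base 36 to the last base, 81, would be longer, so no list can show it. Pieces that start after the anticodon had 130 reads in BCP, 0.137% of plastid-type reads (0.115 to 0.163), and 4 reads in UNM, 1.18% (0.323 to 3.00). These few reads were spread over 49 distinct sequences in BCP, against 4 in UNM, and 28 such sequences are listed in TCP. In BCP, 90 reads started at bases 51 to 53, in front of the T arm, against 1 read in UNM. Reads that cross the anticodon with bases on both sides had 94 reads in BCP and 3 in UNM, of which the 39-base form gave 58 in BCP. No listed CAA sequence ends in CCA, the triplet added to mature tRNAs after transcription, so these data hold no CAA fragment with that tail. The mapping options and build are not given, so whether reads with that tail could enter the lists is not known.

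The nuclear-type fragments were short and came from other parts of the molecule. Their most frequent length was 15 nt in BCP, with 31.4% of nuclear-type reads, and 14 nt in UNM, with 34.4%. Fragments of at most 20 nt made up 90.7% of nuclear-type reads in BCP (89.1 to 92.1) and 94.97% in UNM (92.3 to 96.9). Only 22.5% of nuclear-type reads in BCP and 29.4% in UNM started at base 1, whereas 94.2% of plastid-type reads in BCP and 47.3% in UNM did. An end in the anticodon, which nearly all plastid-type reads have, was found in 0.399% of nuclear-type reads in BCP (0.146 to 0.866) and in 0 of 398 in UNM, with an upper bound of 0.923%.

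Pieces from the 5′ end of the nuclear-type tRNA ended at different bases of the D loop in BCP and UNM. The D loop spans bases 13 to 23, and 4 pieces are shown because their lengths carry the difference.
nuclear-type, 14 nt: gtcaggatggccga
nuclear-type, 15 nt: gtcaggatggccgag
nuclear-type, 16 nt: gtcaggatggccgagt
nuclear-type, 18 nt: gtcaggatggccgagtgg
The 14-base piece had 15 reads in BCP and 58 in UNM, 27.9-fold lower in BCP (15.6 to 53.05). The 15-base piece had 9 reads in BCP and 35 in UNM, 28.1-fold lower (13.2 to 66.4). The longer pieces went the other way: the 16-base piece had 93 reads in BCP and 2 in UNM, 6.44-fold higher in BCP (1.73 to 54.0), and the 18-base piece had 125 in BCP and 3 in UNM, 5.77-fold higher (1.93 to 28.4). Summed, 5′ pieces of 13 to 15 nt had 30 reads in BCP and 108 in UNM, 25.99-fold lower in BCP (17.2 to 40.4), and those of 16 to 20 nt had 288 in BCP and 9 in UNM, 4.43-fold higher (2.30 to 9.79). The whole family of this start, with 338 reads in BCP and 117 in UNM, was 2.50-fold lower in BCP (2.01 to 3.09), a net of these opposite differences. Without tRNA-Asp reads in the totals it was 1.61-fold lower (1.30 to 1.996) and no longer past 2-fold. Over all tRNAs, 695 of the 5477 distinct sequences in UNM have 13 bases, against 780 of the 14717 in BCP. Sequences of 13 bases thus take a larger part of the whole UNM list. Whether the 5′ pieces of this tRNA differ beyond that was not tested.

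The other nuclear-type reads began at the anticodon, in the variable arm or near the 3′ end. Reads that start at bases 36 to 38, in or just after the anticodon, had 403 reads in BCP and 133 in UNM, which are 26.8% of nuclear-type reads in BCP (24.6 to 29.1) and 33.4% in UNM (28.8 to 38.3). Within them, families 1 base apart differed. The family from base 37 had 267 reads in BCP and 35 in UNM, 1.06-fold (0.741 to 1.55), whereas the family from base 38 had 95 in BCP and 97 in UNM, 7.37-fold lower in BCP (5.50 to 9.89). Their leading pieces and that of the variable arm, among rows labelled CAA, are shown with an anticodon base in a capital.
start 37, 15 nt: Agttctggtcctcta
start 38, 13 nt: gttctggtcctct
start 53, 15 nt: cgagggcgtgggttc
The 15-base piece from base 37 had 143 reads in BCP and 13 in UNM, and the 13-base piece from base 38 had 20 in BCP and 66 in UNM, 23.8-fold lower in BCP (14.3 to 41.5). Lengths within each family differed too. From base 37, the 13- and 14-base pieces had 1 and 35 reads in BCP and 8 and 11 in UNM. From base 38, the 14-, 15- and 16-base pieces had 22, 16 and 32 in BCP and 28, 0 and 0 in UNM. Whether start or length carries the difference between the families was not tested. Reads labelled CAA that start at bases 49 to 55, in front of the T arm, numbered 708 in BCP and 78 in UNM. They are 47.0% of nuclear-type reads in BCP (44.5 to 49.6) and 19.6% in UNM (15.8 to 23.8). Most of them, 559 in BCP and 60 in UNM, ended at bases 65 to 68, in the T loop of bases 65 to 71. A 13-base piece from base 55 to base 67 is labelled AAG in BCP and TAG in UNM, so these counts leave it out. It had 193 reads in BCP and 77 in UNM, 2.88-fold lower in BCP (2.18 to 3.77). The leading piece labelled CAA, from base 53 to base 67, had 238 reads in BCP and 22 in UNM. Its ratio was 1.498-fold (0.967 to 2.44), within 2-fold and with an interval that holds 1. Short pieces that start at bases 69 to 72 had 24 reads in BCP and 50 in UNM, 15.04-fold lower in BCP (9.07 to 25.6).

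Grouped by the first 13 bases, the CAA sequences of UNM and BCP form 86 families, of which 19 had at least 50 summed reads and held 99.6% of CAA reads in BCP and 86.7% in UNM. A family or sequence was called higher or lower when its share differed at least 2-fold and the counting interval of the ratio did not hold 1. Of the 19 families, 14 were higher in BCP and 2 lower, against a background of 59.4% higher and 20.6% lower among the 742 families of all tRNAs with the same minimum. All 13 plastid-type families were higher, and of the 6 nuclear-type families 1 was higher, 2 were lower and 3 were neither. Without tRNA-Asp reads in the totals the family from base 1 lost its call, the family from base 38 was 4.76-fold lower (3.55 to 6.38) and kept it, and the family from base 53 was 2.42-fold higher in BCP (1.76 to 3.41) and gained one. Plastid-type families from bases 19, 17 and 8 had 260, 143 and 138 reads in BCP and 4, 4 and 7 in UNM. Those from bases 5, 7, 11, 12, 13 and 52 had 96, 51, 60, 64, 498 and 52 reads in BCP and no read in UNM, so the minimum of 50 reads fixes their call. The nuclear-type family that was higher starts at base 52 and had 75 reads in BCP and 2 in UNM, 5.19-fold (1.39 to 43.7). At the depth of UNM, 9 families passed the minimum, with 5 higher and 2 lower.

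Of the 299 CAA sequences in UNM or BCP, 31 had at least 50 summed reads. Of these 31, 23 were higher in BCP and 3 lower, beside 68.2% higher and 17.2% lower among the 1794 such sequences of all tRNAs, so the count of calls lay near the background. Their median log2 ratio was 2.00, against 2.01 over all 1794. All 20 plastid-type sequences were higher, with a median of 2.24 and a range of 1.37 to 6.30, but 12 of them had no UNM read and were called by the minimum. Of the 11 nuclear-type sequences 3 were higher, 3 lower and 5 neither, with a median of 0.58 and a range of -4.80 to 3.34. The 3 lower ones were the 14-base 5′ piece and the 13- and 14-base pieces from base 38. The remaining 268 sequences stayed under the minimum, and 113 of the BCP and 38 of the UNM sequences were read 1 time.

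CAA fragments were mostly long in BCP and mostly short in UNM. Fragments of at least 30 nt made up 92.4% of CAA reads in BCP (92.3 to 92.6) and 22.7% in UNM (19.7 to 25.9). Within the plastid type they made up 93.8% in BCP (93.6 to 94.0) and 46.2% in UNM (40.7 to 51.6), and within the nuclear type 6.05% in BCP (4.90 to 7.37) and 2.51% in UNM (1.21 to 4.57). Without the largest family, the long share was 4.08% of CAA reads in BCP and 1.91% in UNM, so nearly all long reads belonged to 1 start. Over all other listed fragments the long share was 49.96% in BCP and 4.02% in UNM. The first base was G in 93.6% of CAA reads in BCP and 53.9% in UNM, and both parents begin with G.

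The remaining leucine isoacceptors showed another balance. Together the rows with anticodons AAG, CAG, TAA and TAG had 16167 reads or 0.326% in BCP and 4381 or 0.638% in UNM, 1.96-fold lower in BCP (1.89 to 2.02), beside the 1.91-fold of the nuclear-type CAA fragments. Among them AAG and CAG were 22.4-fold (20.2 to 24.9) and 21.7-fold (19.9 to 23.8) lower in BCP, TAA was 3.25-fold higher (2.96 to 3.57) and TAG was 1.28-fold (1.16 to 1.41). CAA rows were 85.6% of leucine reads in BCP (85.4 to 85.8) and 14.4% in UNM (13.4 to 15.4). The long share of the other leucine rows was 41.5% in BCP (40.7 to 42.2) and 3.72% in UNM (3.18 to 4.32). Whether these differences exceed variation between libraries was not tested, with 1 library each.

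In TCP the presence of sequences was read against the earlier stages. The TCP list shares 139 CAA sequences with BCP, 66.5% of the TCP and 49.6% of the BCP sequences, and 53 with UNM, 25.4% of the TCP and 63.1% of the UNM sequences. Over all tRNAs the list of TCP shares 71.4% of its sequences with BCP and 34.9% with UNM. In all 3 lists 49 CAA sequences occur, 13.4% of the 365, against 14.6% of all listed sequences. Only TCP lists 66 under the label CAA, which are 31.6% of its CAA sequences, against 24.9% of all its sequences. The CAA counts of shared and TCP-only sequences need the label CAA in each list. Those over all tRNAs join a sequence under any label, so the 2 kinds of share are not counted alike. TCP lists 128 plastid-type and 77 nuclear-type sequences. Under any label, BCP lists 92 of the 128 and 52 of the 77, and UNM lists 20 and 35. Of the 26 CAA sequences with at least 50 BCP reads, 25 are listed in TCP. The exception is the 39-base form, and TCP lists 0 sequences of 39 bases of any tRNA but 252 of 40, so its absence says nothing about the fragment. Without that length all 25 of the CAA sequences are listed, against 93.6% of the 1599 sequences of all tRNAs with as many BCP reads. Of the nuclear-type pieces that start at base 1, TCP lists 3, of 16, 18 and 20 nt, and none of 13 to 15 nt, the lengths that led in UNM. A 14-base piece from base 2, with 1 read each in BCP and UNM, is listed there. All 19 families with at least 50 summed reads have a sequence in TCP, and together the TCP pieces cover 81 of 81 bases of the plastid-type parent and 75 of 84 of the nuclear-type parent.

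Labels of short sequences differed between lists. In 15 of the 365 sequences another list gives another anticodon, and the longest of them has 25 nt. A 13-base piece of the nuclear-type parent, which lies 2 bases further along than the family from base 53, is labelled TAG in UNM, AAG in BCP and CAA in TCP.
start 55, 13 nt: agggcgtgggttc
It had 193 reads in BCP and 77 in UNM, which are not in the CAA totals. Pieces of the plastid-type parent under the labels GAA or CAG held 89 reads in BCP and 10 in UNM. Those of the nuclear-type parent under AAG or TAG held 197 in BCP and 90 in UNM. With every listed sequence that matches either parent counted, the CAA log2 ratio was 3.9997 in place of 4.18. The nuclear-type one was then -1.05 in place of -0.93. Among the 6 sequences outside both parents, the 35-base form with the change C3A, counted on the plastid-type parent, had 15 reads in BCP and 1 in UNM, and 2 sequences with the change G17A had 1 read in BCP and none in UNM.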

How the data were processed

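Small RNA libraries of 3 spore stages of rice cultivar Guichao No.2, 1 per stage, were sequenced on an Illumina platform, per the labels' protocols. Per the submitters' processing notes, Bowtie 1.1.2 was used. Trimming, mapping options and build: not given in the sources used here. For BCP and UNM the authors deposited a count of whole reads per distinct sequence, not normalized. The number column the authors deposited for TCP was treated as a score of unknown meaning and used only for presence. Members are rows with anticodon CAA. Sequences were joined by exact identity. Parent tRNAs were rebuilt by extension over 12-nt overlaps, with at least 2 distinct sequences per added base, after the data were seen. Shares carry exact Clopper-Pearson and ratios exact conditional binomial 95% intervals (Python 3.11.15, scipy 1.17.1). A 0 was set to 3 counts in a fold, 6.05e-05% of BCP and 0.000437% of UNM reads. The labels name no molecular identifiers, and PCR copies may repeat a molecule, so these intervals describe counting error alone. Calls used at least 50 summed reads, a 2-fold ratio and an interval of the ratio that did not hold 1. Described are the families with the most reads, the top sequences of each list and the extreme ratios. Members, families and rules were chosen with earlier results of these data known. Alternatives changed totals, length range, minimum, depth and membership.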

Additional observations from a re-analysis of the deposited data

How the results depend on the processing

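No paired analysis was possible because each stage has 1 library. The log2 ratio of the CAA share (4.18) was 4.81 without tRNA-Asp reads, 1.17 for sequences of at most 33 nt, 1.29 without the 35-nt sequence, 0.79 without the largest family, 0.31 by distinct sequences and 3.9997 by sequence match. It was within its interval without sequences under 13 nt or with differing labels. The same ratio of the largest family (6.27) was 6.90 without tRNA-Asp, 5.48 up to 33 nt and 5.76 without the 35-nt sequence. For the plastid type (5.28) these values were 5.91, 2.54 and 2.70, and by sequence match it was 5.24. For the nuclear type (-0.93) they were -0.30 without tRNA-Asp, -0.72 up to 33 nt and -1.05 by sequence match. The long share of 92.4% in BCP and 22.7% in UNM was 10.5% and 0.870% up to 33 nt, 27.99% and 2.56% without the 35-nt sequence, 4.08% and 1.91% without the largest family, and 93.3% in BCP from 25 nt on. The share of plastid-type reads that end at base 35 was 59.1% in BCP and 84.9% in UNM without the 35-nt sequence, and 76.4% and 86.8% up to 33 nt. The difference, BCP minus UNM, was thus -25.8 and -10.5 percentage points in place of 4.57, so its direction reversed in both settings. With BCP thinned, 8 sequences and 5 families were higher. With a minimum of 10 summed reads 11 sequences and 8 families were lower, and with 100 no sequence (0) was lower and 8 families were higher. Without tRNA-Asp 1 family was lower, since the nuclear-type family from base 1 had a log2 ratio of -0.69 in place of -1.32. No log2 ratio changed sign in these settings, the number of sequences compared (31) was 75, 18 and 11 with a minimum of 10, with 100 and with BCP thinned, the number of families compared (19) was 36 with 10 and 9 with BCP thinned, and for changes that the setting does not itself produce the cause was not tested. Some settings were added after the data were seen: those for each parent, for the family from base 1, for the ends at base 35 and by sequence match. The UNM depth of 737 CAA reads limits what is detectable. Pieces with no UNM read may still be present, with an exact upper bound of 0.000537% of reads.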
